A study of Danio rerio with 12 samples.

Results

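The lens crystallin genes were examined in the RNA of whole zebrafish larvae with and without a functional elmo2 gene. Genes were members when their symbol began with cryaa, cryab, cryba, crybb, crygm, crygn or crygs, ignoring case. This rule found 57 of the 32520 genes in the files, and the cryptochromes were not among them. By class, 3 were alpha crystallins, 7 beta A, 6 beta B, 35 gamma M, 2 gamma N and 4 gamma S crystallins. Several zebrafish genes carry the same human-style symbol in the symbol table, and these are given with their Ensembl identifier. The comparison was between 6 samples of elmo2-/- and 6 of elmo2+/+ fish. Each sample pooled 30 snap-frozen larvae at 120 h post fertilization (hpf). The elmo2-/- line carries a CRISPR/Cas9 frameshift deletion with an early stop codon, and was made in the reporter line Tg(fli1:EGFP), in which endothelial cells carry EGFP, so that this background belongs to both genotypes. Whether the pools came from separate clutches is not stated, and p-values therefore measure only the spread between these samples. The label numbers of the libraries run from 1 to 6 in elmo2+/+, and are 13, 14, 15, 16, 7 and 8 in elmo2-/- replicates 1 to 6, so that effects of the library number and of the genotype cannot be told apart.

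Crystallins are the abundant soluble proteins that make the lens transparent and refractive. They are produced by lens fiber cells, which lose their nuclei and organelles as they mature. The alpha crystallins belong to the small heat shock proteins and act as chaperones, whereas the beta and gamma crystallins form a separate family of compact structural proteins. The gamma M crystallins are a methionine-rich group found in the dense lenses of aquatic vertebrates. Elmo proteins act with Dock proteins to activate Rac, a regulator of the actin cytoskeleton.

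The targeted gene was examined first. The level of elmo2 was 31.4, 32.8, 51.6, 42.8, 35.0 and 50.3 CPM (read counts scaled to the library total and by TMM) in elmo2-/- replicates 1 to 6. It was 56.3, 77.1, 85.0, 64.6, 88.0 and 92.4 CPM in elmo2+/+ replicates 1 to 6. All elmo2-/- samples thus lay below all elmo2+/+ samples, and their mean was 52.6% of that of elmo2+/+. On the log2 scale the fold change was -0.93 with a standard error (SE) of 0.15, and the p adjusted by Benjamini-Hochberg over 22259 genes was 0.642 in the quasi-likelihood test of edgeR and 0.00012 in DESeq2. Total estimated counts lay between 20116203 and 20939679 per sample. In edgeR, 0 of the 22259 genes had an adjusted p under 0.05 (0%), and 1041 genes (4.68%) had an unadjusted p under 0.05. Across all genes the median log2 fold change was -0.00061.

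The crystallins were a large part of the larval transcriptome. They made up between 2.39% and 3.72% of all TPM (a level scaled to transcript length and library total), summed over the 57 genes in each sample. Over the 12 samples, 10 genes had a mean of at least 1000 TPM, 22 lay between 100 and 1000 TPM, 13 between 1 and 100 TPM, and 12 below 1 TPM. Gamma M crystallins held 53.2% of the crystallin TPM, beta A crystallins 22.0%, beta B crystallins 19.0%, gamma N crystallins 5.53% and alpha crystallins 0.245%. The levels thus ran from above 1000 TPM among beta, gamma M and gamma N genes to traces among gamma S genes. Of the 57 members, 46 passed the filter on low counts and were tested, and the other 11 had means of at most 1.39 TPM.

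**Figure D1:**
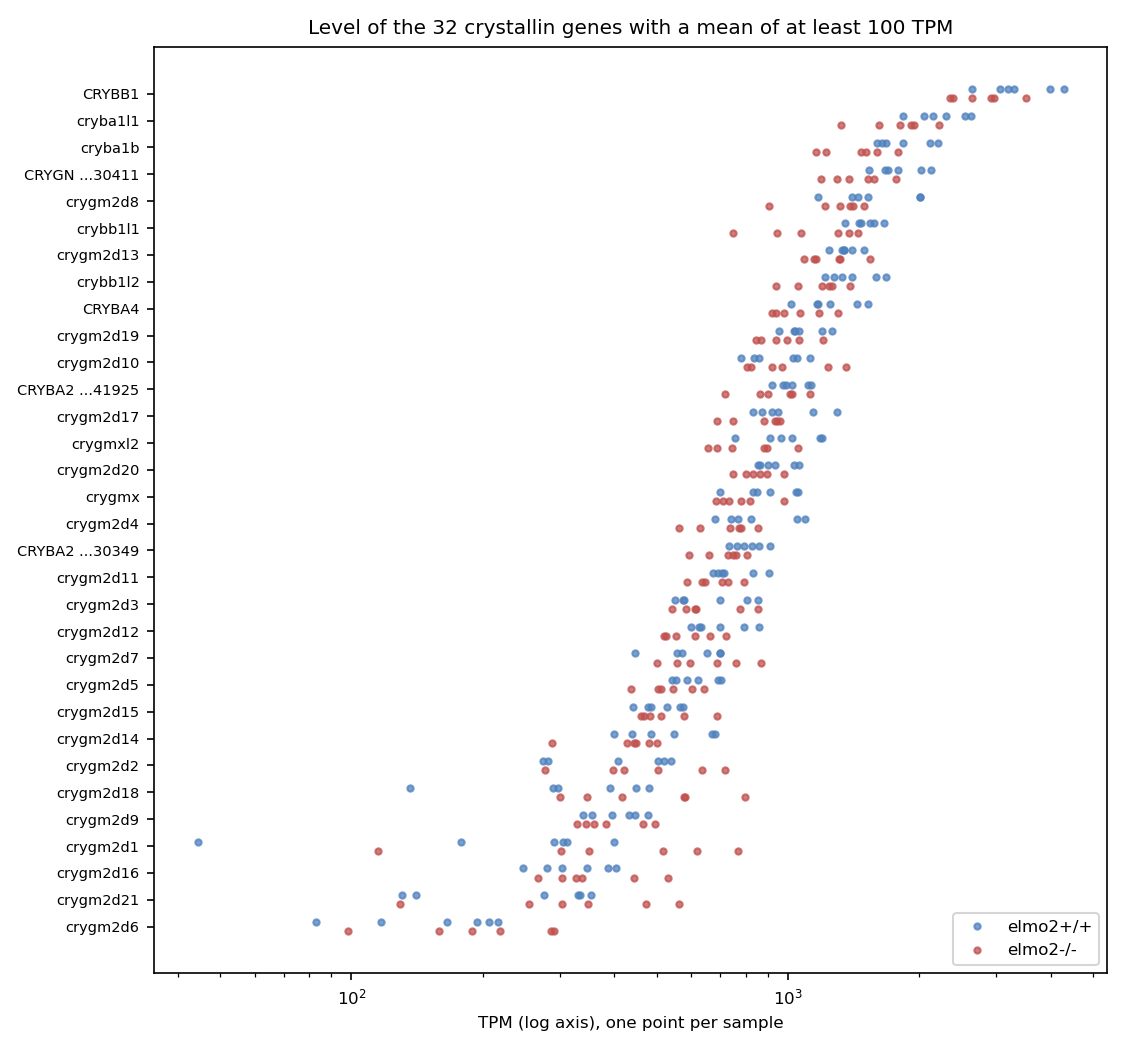
TPM (log axis) of the 32 crystallin genes with a mean of at least 100 TPM, with 1 point per sample, elmo2+/+ in blue and elmo2-/- in red. CRYBB1 has the highest level, the points of both genotypes overlap in every gene, and the widest spreads are in the lower rows, among them crygm2d1 with 44.4 to 767 TPM.

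The summed crystallin level was somewhat lower in elmo2-/- larvae on average, but the genotypes overlapped. The sum was 26495, 27882, 34878, 31017, 25247 and 23862 TPM in elmo2-/- replicates 1 to 6. In elmo2+/+ replicates 1 to 6, it was 26791, 31353, 28574, 30683, 36482 and 37167 TPM. The mean was 28230 ± 4076 TPM (SD, n = 6) in elmo2-/- and 31842 ± 4187 TPM (SD, n = 6) in elmo2+/+, and the elmo2-/- mean was 88.7% of the elmo2+/+ mean. In TPM, the lowest sums belonged to elmo2-/- replicates 5 and 6, and the highest to elmo2+/+ replicates 5 and 6, while the other 8 samples lay between 26495 and 34878 TPM. This order depended on the unit. In CPM the lowest sums were those of elmo2-/- replicate 1 (14714) and elmo2+/+ replicate 1 (14963). The highest CPM sum was that of elmo2+/+ replicate 6 (22821), followed by elmo2-/- replicate 3 (22666) and elmo2+/+ replicate 5 (22174). In whole larvae, fewer lens cells and less crystallin RNA per cell cannot be told apart.

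**Figure D2:**
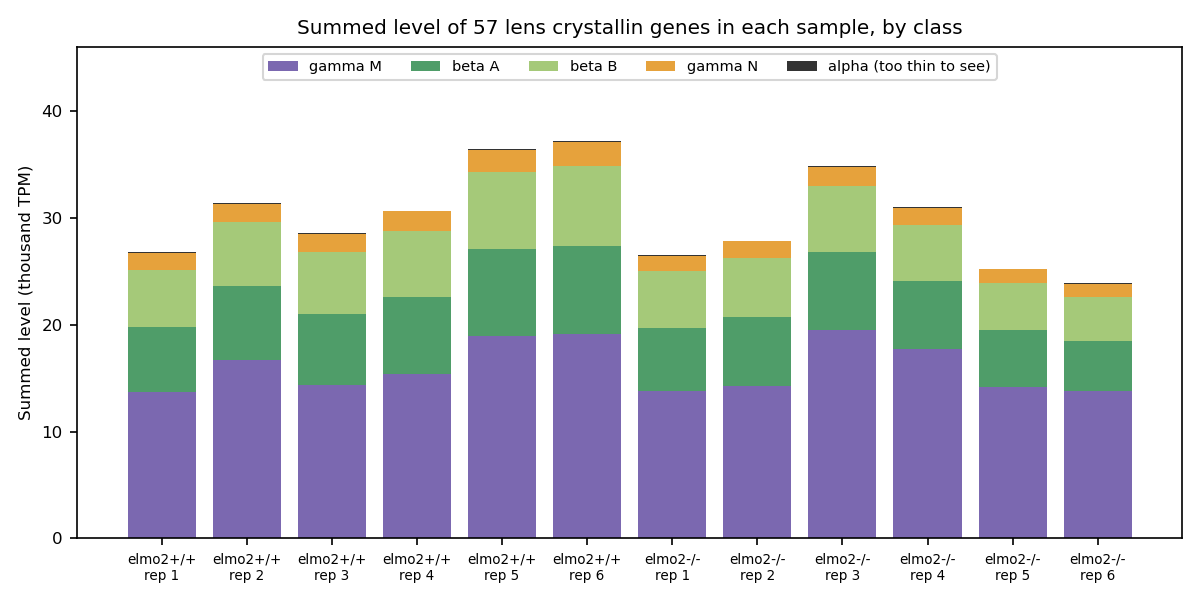
Stacked bars of the summed TPM (in units of 1000 TPM) of the crystallin classes in each sample. The gamma M and beta genes make up most of every bar, the tallest bars are elmo2+/+ replicates 5 and 6 (36482 and 37167 TPM), and the shortest are elmo2-/- replicates 5 and 6 (25247 and 23862 TPM).

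Without replicates 5 and 6 of both genotypes, a choice made after the values were seen, the elmo2-/- mean was no longer lower. The sums were then 26495 to 34878 TPM in elmo2-/- and 26791 to 31353 TPM in elmo2+/+, and the elmo2-/- mean was 102% of the elmo2+/+ mean. In TPM, this choice leaves out the lowest elmo2-/- and the highest elmo2+/+ sums, so that a smaller difference was bound to follow. It is therefore no independent check, here or for the values with replicates 1 to 4 given below. The elmo2-/- samples with library numbers 13 to 16 alone (replicates 1 to 4) reached 94.4% of the mean of all elmo2+/+ samples. The elmo2-/- samples with library numbers 7 and 8 (replicates 5 and 6) reached 77.1% of it, and both lay below every elmo2+/+ sample in TPM. In CPM, their sums of 15175 and 15032 lay above that of elmo2+/+ replicate 1 (14963). The size of the difference in summed level thus varied with the samples compared. Within library numbers 13 to 16 the elmo2-/- sums ranged from 26495 to 34878 TPM, and the part of the library number was not tested.

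No single crystallin gene passed the test between genotypes. In edgeR's quasi-likelihood test, 0 of 46 tested members had an adjusted p under 0.05, beside 0% of all genes, and their adjusted p was 0.9997. DESeq2 and limma gave 0 members as well, beside 3 of 22259 genes in DESeq2 and 0 of all genes in limma. At an unadjusted p under 0.05, edgeR listed 2 of 46 members (4.35%), both lower in elmo2-/-, beside 2.13% of all genes for this direction and 4.68% for either direction. DESeq2 listed 4 members, all lower, beside 2.1% of all genes in this direction. On log2 TPM values, limma listed 7 members with a pseudocount of 1 (beside 3.06% of all genes lower), 5 with a pseudocount of 0.1 (beside 3.03%) and 6 with no filter on low values (beside 3.16%), all lower in elmo2-/-. No member was without overlap between genotypes in CPM (0 of 46), beside 0.198% of all genes.

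The fold changes lay below 0 more often than above. The log2 fold change was below 0 in 31 of 46 members (67.4%), beside 50.2% of all genes tested. The members' median was -0.13, beside -0.00061 for all genes. Members move together in a sample, as described below, and are not independent of each other. With single samples left out, most members stayed below 0. Their number ran from 29 of 46 without elmo2+/+ replicate 5 to 38 of 48 without elmo2-/- replicate 3. The count of members with an unadjusted p under 0.05 depended more on single libraries. Leaving out elmo2-/- replicate 3, the elmo2-/- sample with the highest crystallin level, gave 9 members with an unadjusted p under 0.05 in edgeR, beside 3.79% of all genes in either direction. Leaving out elmo2+/+ replicate 1 or elmo2+/+ replicate 3 gave 7 members in each case, beside 4.63% and 4.44% of all genes. Leaving out elmo2-/- replicate 4 gave 4, beside 3.99%. All of these were lower in elmo2-/-. Leaving out elmo2-/- replicate 2 gave 4, beside 4.81%, of which 2 were lower and 2 higher. Leaving out elmo2-/- replicate 5 or 6 left 1 member, beside 3.14% and 4.09%. Leaving out elmo2+/+ replicate 4, 5 or 6 also left 1, beside 5.2%, 4.43% and 3.86% of all genes.

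The counts of single genes also differed between sets of libraries. With elmo2-/- library numbers 13 to 16 only, 0 of 48 members had an unadjusted p under 0.05 in edgeR, beside 1.14% of all genes lower in elmo2-/-. Of the 48, 31 had a log2 fold change below 0, beside 11256 of the 22530 genes tested. With elmo2-/- library numbers 7 and 8 only, 14 of 49 members had an unadjusted p under 0.05, all lower, beside 4% of all genes in this direction, and the lowest adjusted p of a member was 0.507 in edgeR. With replicates 1 to 4 of both genotypes, 0 of 46 members had an unadjusted p under 0.05, beside 1.36% of all genes lower in elmo2-/-. In that comparison only 10 of 46 members had a log2 fold change below 0, beside 11201 of 22360 genes, and the members' median was 0.043. With elmo2-/- replicates 1 to 4 against all elmo2+/+ samples most members had stayed below 0, so that this shift came with leaving out elmo2+/+ replicates 5 and 6 as well. With replicates 5 and 6 of both genotypes, 45 of 49 members had a log2 fold change below 0. Of these 49, 33 had an unadjusted p under 0.05 and were lower, beside 5.24% of all genes, and 1 was higher. The members' median was -0.48, beside 0.0031 for all genes, and the lowest adjusted p of a member was 0.0975 in edgeR. Replicates 1 to 4 and replicates 5 and 6 of both genotypes were set apart after the values were seen. The latter comparison sets the samples with the lowest elmo2-/- sums in TPM against those with the highest elmo2+/+ sums. The former leaves these same samples out.

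**Figure D3:**
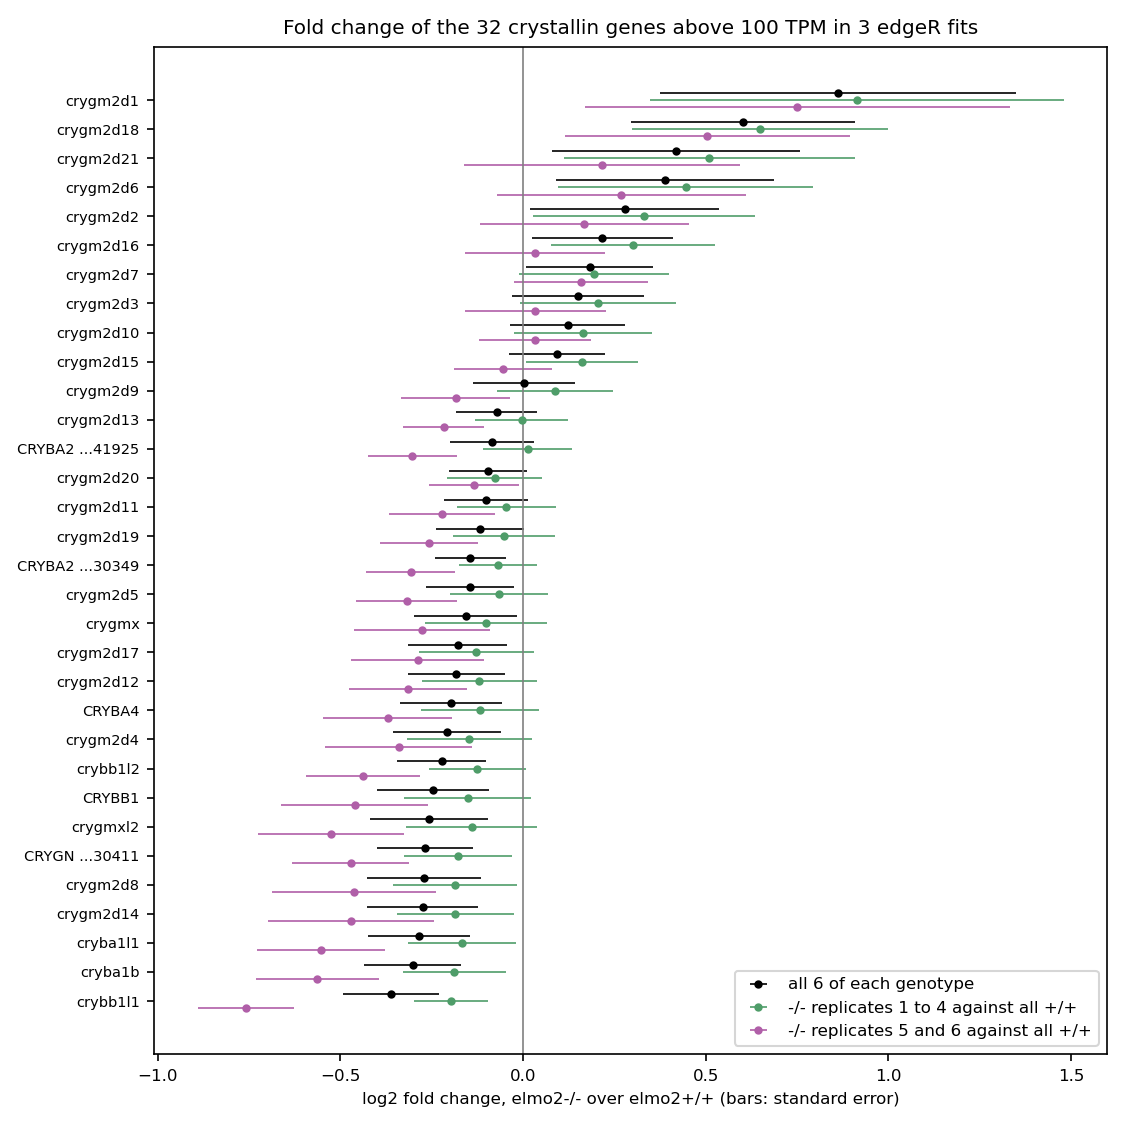
Log2 fold change (elmo2-/- over elmo2+/+) with its SE for the 32 crystallin genes with a mean of at least 100 TPM, in edgeR fits of all samples (black), of elmo2-/- replicates 1 to 4 against all elmo2+/+ (green) and of elmo2-/- replicates 5 and 6 against all elmo2+/+ (purple). In most rows purple points lie left of green points, and crybb1l1 in the bottom row is lowest in all fits (-0.36 with all samples).

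The alpha crystallins held the smallest share of the crystallin TPM after the gamma S crystallins. CRYAA, the lens chaperone, had 46.8 to 83.6 TPM in elmo2-/- (median 63.4) and 60.5 to 102 TPM in elmo2+/+ (median 77.6). The genotypes overlapped, with means of 64.9 ± 14.9 and 80.5 ± 15.02 TPM (SD, n = 6), and the log2 fold change was -0.27 (SE 0.16, adjusted p = 0.9997 in edgeR). The lower 3 of the elmo2-/- samples were replicates 4, 5 and 6, with 46.8, 54.3 and 54.6 TPM. The CRYAB genes, whose mammalian counterpart is a small heat shock protein of lens, heart and muscle, were barely detected. CRYAB ENSDARG00000042621 lay between 0.293 and 0.827 TPM, and CRYAB ENSDARG00000101380 between 0.251 and 0.861 TPM. With means of about 10.8 counts for the first of these, no direction can be read.

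Beta A crystallins, the acidic members of the oligomeric beta group, had a log2 fold change below 0 in 6 of 7 genes. Their median was -0.14, and 50.2% of all genes tested lay below 0. cryba1l1 had 1322 to 2214 TPM in elmo2-/- (median 1858) and 1835 to 2622 TPM in elmo2+/+ (median 2225). Its log2 fold change was -0.28 (SE 0.14, adjusted p = 0.9997 in edgeR). For cryba1b, the elmo2-/- replicates 1 to 6 had 1507, 1603, 1789, 1470, 1225 and 1157 TPM. The elmo2+/+ replicates 1 to 6 had 1600, 1681, 1645, 1831, 2117 and 2202 TPM. In TPM, elmo2-/- replicates 2 and 3 reached the range of elmo2+/+ in this gene and the other 4 lay below it. In CPM, elmo2-/- replicate 4 (1119) reached it too, as the lowest elmo2+/+ sample had 1026. The log2 fold change of cryba1b was -0.30 (SE 0.13), with an unadjusted p of 0.0392 and an adjusted p of 0.9997 in edgeR.

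CRYBA4 had 919 to 1302 TPM in elmo2-/- (median 1023) and 1015 to 1522 TPM in elmo2+/+ (median 1210). Its log2 fold change was -0.20 (SE 0.14) in edgeR with all samples and 0.016 with replicates 1 to 4 of both genotypes. CRYBA2 ENSDARG00000030349 was among the 3 steadiest crystallins, with an SD of 0.18 in log2 CPM over the 12 samples, and had 592 to 805 TPM in elmo2-/- and 732 to 907 TPM in elmo2+/+. The steadiest of all tested members was cryba1l2, at 19.8 to 28.0 TPM in elmo2-/- and 21.6 to 29.3 TPM in elmo2+/+. Its SD was 0.16, and its log2 fold change of 0.0094 (SE 0.092) changed sign with the scaling. The median SD of the 46 members was 0.31, beside 0.20 for all genes tested.

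Beta B crystallins, the basic members of the beta group, held the gene of highest level and the gene of smallest p. CRYBB1 had 2637, 2923, 3508, 2969, 2348 and 2387 TPM in elmo2-/- replicates 1 to 6. In elmo2+/+ replicates 1 to 6 it had 2645, 3054, 3195, 3296, 3976 and 4282 TPM. In TPM, elmo2-/- replicates 1, 5 and 6 lay below every elmo2+/+ sample, and elmo2-/- replicate 3 above 4 of the 6. In CPM, elmo2-/- replicate 6 (1569) lay above elmo2+/+ replicate 1 (1471). Its log2 fold change was -0.25 (SE 0.15, adjusted p = 0.9997 in edgeR), and 0.017 with replicates 1 to 4 of both genotypes. Next in level was cryba1l1, whose range over the 12 samples overlapped that of CRYBB1.

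crybb1l1 had 1445, 1377, 1299, 1071, 944 and 749 TPM in elmo2-/- replicates 1 to 6. In elmo2+/+ replicates 1 to 6 it had 1471, 1457, 1348, 1570, 1657 and 1543 TPM. In TPM, 4 of the 6 elmo2-/- samples lay below all elmo2+/+ samples, and replicate 3, high in most crystallins, was among them. In CPM, replicate 3 had the highest elmo2-/- value (2147), within the elmo2+/+ range of 2016 to 2560. The elmo2-/- replicates 1, 4, 5 and 6 lay below that range. The log2 fold change was -0.36 (SE 0.13), with an unadjusted p of 0.0155 and an adjusted p of 0.9997 in edgeR. It was -0.15 with replicates 1 to 4 of both genotypes. crybb1l2 had 940 to 1388 TPM in elmo2-/- and 1216 to 1678 TPM in elmo2+/+, with a log2 fold change of -0.22 (SE 0.12) in edgeR. The remaining beta B genes were low: crybb1l3 had 2.99 to 6.84 TPM, and CRYBB2 and CRYBB3, abundant structural proteins in the mammalian lens, had means of 0.510 and 0.536 TPM.

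Gamma N crystallins share features of the beta and gamma groups. CRYGN ENSDARG00000030411 had 1192 to 1771 TPM in elmo2-/- (median 1453) and 1533 to 2131 TPM in elmo2+/+ (median 1740). Its log2 fold change was -0.27 (SE 0.13), with an unadjusted p of 0.0597 and an adjusted p of 0.9997 in edgeR. Its paralog CRYGN ENSDARG00000102129 had 24.9 to 43.1 TPM in elmo2-/- and 27.0 to 36.6 TPM in elmo2+/+, and its log2 fold change of 0.053 (SE 0.16) was within its SE of 0 and changed sign in limma on log2 TPM values. The gamma S crystallins, which include a major protein of the mammalian lens, were barely detected in these larvae. CRYGS ENSDARG00000042992 reached at most 1.61 TPM, crygs4 at most 0.868 TPM, CRYGS ENSDARG00000041171 at most 0.443 TPM and crygs3 at most 0.180 TPM in any sample, and none of the 4 was tested.

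The gamma M class was the largest, and 21 of its 35 genes were crygm2d copies, all above 100 TPM on average. Some of these copies differed from the other abundant crystallins in the sign of the log2 fold change. Outside the copies, 11 members had a mean above 100 TPM. All 11 had a log2 fold change below 0, from -0.36 to -0.085 with a median of -0.25, beside 50.2% of all genes tested. These 11 move together, as described below, and stayed below 0 with any single sample left out. Among the copies, 10 of 21 lay below 0 and 11 above, from -0.27 to 0.86 with a median of 0.0018. With replicates 1 to 4 of both genotypes, 5 of those 11 members and 0 of the 21 copies lay below 0, beside 11201 of 22360 genes. None of the 21 copies had an unadjusted p under 0.05 in edgeR with all samples, beside 4.68% of all genes in either direction.

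Of the highest copies, crygm2d8 had 905 to 1491 TPM in elmo2-/- (median 1351) and 1174 to 2004 TPM in elmo2+/+ (median 1485), with a log2 fold change of -0.27 (SE 0.16). crygm2d13 had 1089 to 1543 TPM in elmo2-/- (median 1231) and 1244 to 1496 TPM in elmo2+/+ (median 1345), with a log2 fold change of -0.072 (SE 0.11). crygm2d19 had 845 to 1201 TPM in elmo2-/- and 952 to 1260 TPM in elmo2+/+, with a log2 fold change of -0.12 (SE 0.12). The genotypes overlapped in all 3 genes, and their adjusted p was 0.9997 in edgeR. The steadiest copy was crygm2d20, with 748 to 977 TPM in elmo2-/- and 852 to 1059 TPM in elmo2+/+.

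Of the gamma M genes outside the copies, 9 were tested and 8 had a log2 fold change below 0, beside 50.2% of all genes tested. Only crygmxl2 and crygmx were abundant, at 655 to 1057 and 686 to 978 TPM in elmo2-/- and 754 to 1194 and 699 to 1056 TPM in elmo2+/+. crygmxl1 was low, with 1.86 to 6.29 TPM in elmo2-/- (median 4.31) and 4.36 to 6.69 TPM in elmo2+/+ (median 6.27). Its log2 fold change of -0.45 (SE 0.23) was the lowest of all tested members, with an unadjusted p of 0.0695 and an adjusted p of 0.9997 in edgeR. The remaining genes, among them crygm1, crygm5, crygm2b, crygm2c, crygm2e and crygm2f, had means between 1.62 and 30.1 TPM.

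The members largely moved together from sample to sample. Of 46 members, 45 were above their own 12-sample mean in elmo2-/- replicate 3 and 38 in elmo2-/- replicate 4, but 4, 9, 2 and 12 in elmo2-/- replicates 1, 2, 5 and 6. In elmo2+/+ replicates 1 to 6, the numbers were 11, 28, 16, 39, 43 and 42. Each genotype thus held samples in which nearly all crystallins were high and samples in which most were low. All genes of a sample share its library and depth, which bears on their correlations. Over the 12 samples, the median pairwise Pearson correlation of log2 CPM was 0.95 among the 11 abundant members outside the copies (range 0.53 to 0.99). Among the 21 copies the median was 0.76 (range -0.31 to 0.99).

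The 5 copies that varied most were looked at together, with no clear gap to the other 16. They were chosen after their values were seen, as the copies with an SD above 0.4 in log2 CPM: crygm2d1 (SD 1.18), crygm2d21 (0.72), crygm2d18 (0.70), crygm2d6 (0.63) and crygm2d2 (0.52). The next copy, crygm2d16, had an SD of 0.38. crygm2d1 had 351, 115, 767, 619, 303 and 518 TPM in elmo2-/- replicates 1 to 6. In elmo2+/+ replicates 1 to 6 it had 44.4, 400, 178, 305, 291 and 312 TPM. The highest sample was 17.3 times the lowest, and high and low samples occurred in both genotypes, so that the log2 fold change of 0.86 had an SE of 0.49 (adjusted p = 0.9997 in edgeR).

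crygm2d18 had 418, 300, 798, 576, 347 and 581 TPM in elmo2-/- replicates 1 to 6, and 136, 480, 449, 391, 298 and 289 TPM in elmo2+/+ replicates 1 to 6. Its log2 fold change was 0.60 (SE 0.31), with an unadjusted p of 0.0702 and an adjusted p of 0.9997 in edgeR. crygm2d21 lay between 129 and 563 TPM in elmo2-/- and between 131 and 355 TPM in elmo2+/+, with a log2 fold change of 0.42 (SE 0.34). In crygm2d1, crygm2d18 and crygm2d21, the lowest elmo2+/+ sample was replicate 1, the lowest elmo2-/- sample was replicate 2, and the highest of all 12 samples was elmo2-/- replicate 3. All 5 copies had a higher mean TPM in elmo2-/- than in elmo2+/+, but this set was chosen by its spread and the genotypes overlapped in each.

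**Figure D4:**
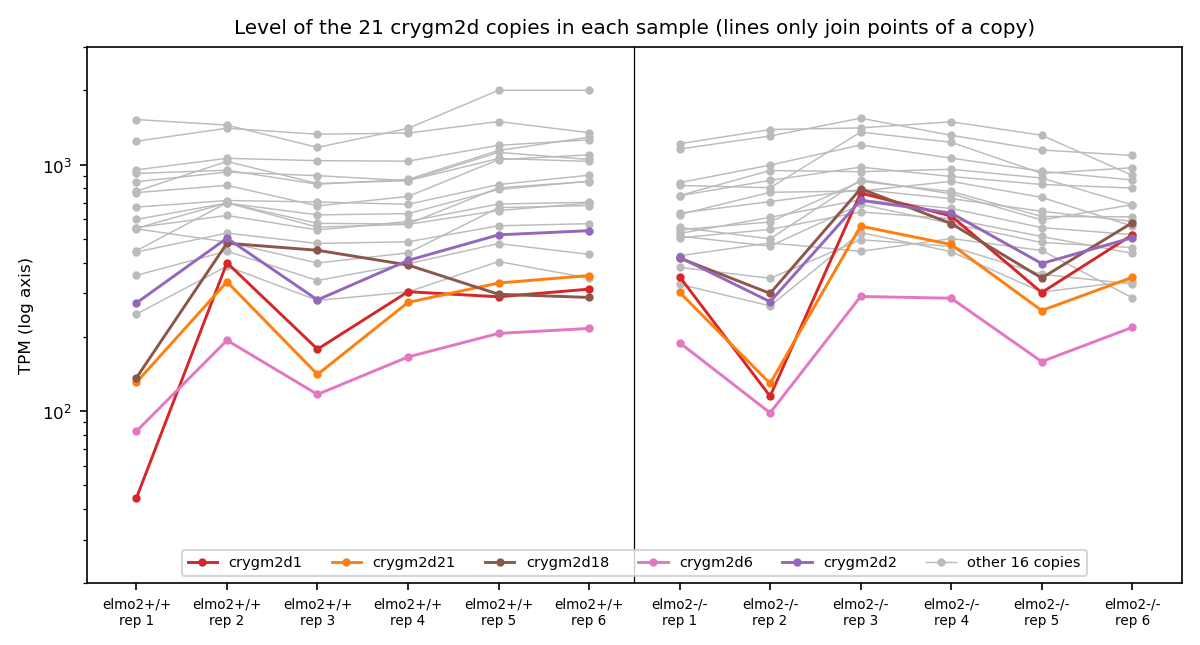
TPM (log axis) of the 21 crygm2d copies in each sample, with the 5 copies of SD above 0.4 in colour and the other 16 in grey, and lines joining the points of a copy only as a guide. The coloured copies drop together in elmo2+/+ replicate 1 and elmo2-/- replicate 2, where crygm2d1 had 44.4 and 115 TPM. In elmo2+/+ replicate 3, crygm2d1 (178 TPM), crygm2d21 (141), crygm2d6 (117) and crygm2d2 (282) are low as well, but crygm2d18 (449) is not. The grey copies are spread less between samples.

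The 5 copies moved with each other and, at the median, less with the other 16. The direction of their swings was shared more widely. Of the 21 copies, 0 were above their own mean in elmo2-/- replicate 2 and 1 in elmo2+/+ replicate 1, but 21 in elmo2-/- replicate 3. The median pairwise correlation of the 5 copies was 0.91 (lowest 0.71) over the 12 samples, while the median between them and the other 16 copies was 0.54 (range -0.31 to 0.95). With the summed level of the crystallins outside the copies, Pearson's r ranged from 0.13 (crygm2d18) to 0.41 (crygm2d2) for the 5 copies and from 0.42 (crygm2d7) to 0.93 (crygm2d5) for the other 16, with no gap between the ranges. The 5 copies held 13.7%, 7.36%, 18.0%, 16.3%, 11.5% and 17.6% of the TPM of all copies in elmo2-/- replicates 1 to 6. In elmo2+/+ replicates 1 to 6 they held 5.52%, 12.9%, 9.37%, 11.6%, 9.91% and 10.2%. Summed over all 21 copies, the level was 13854 ± 2218 TPM in elmo2-/- and 14367 ± 2048 TPM in elmo2+/+ (SD, n = 6 each), and the highest sample was 1.43 times the lowest. In CPM, the sum was 6633 in elmo2-/- and 6611 in elmo2+/+, so that its direction changed with the unit.

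Sharing of reads between copies bears on these values. The estimated count of a gene is not a whole number where reads were divided between it and other genes. Of the copies' estimated counts, 98.8% differed from a whole number by more than 0.001. This share was 81.1% in the 11 abundant members outside the copies, 41.6% in all genes tested and 8.33% in elmo2. It counts any deviation above 0.001, and does not give how many reads were divided. In cryba1l1, cryba1b and CRYBB1, among these 11, the deviations were small fractions of a read. The counts of crygmx, crygmxl1, crygm2e and both CRYGN genes were whole in all 12 samples. The levels of single copies are therefore uncertain to an unknown extent, and the part that read sharing has in the spread of the 5 copies was not tested. In the RefSeq annotation of the assembly GRCz12tu, which is not the build of these files and was used only for neighbours, 34 crystallin genes lie in a run of 37 protein-coding genes. All 34 are members, and the 21 copies are among them. Counted along this run, the 5 variable copies were numbers 4 (crygm2d18), 9 (crygm2d6), 18 (crygm2d21), 20 (crygm2d2) and 21 (crygm2d1) of the 21, and did not form a single block.

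The composition of the crystallins differed slightly between genotypes, within overlapping ranges. Gamma M crystallins held 51.2% to 57.7% of the crystallin TPM in elmo2-/- (mean 55.0% ± 2.70) and 50.1% to 53.1% in elmo2+/+ (51.3% ± 1.17, SD, n = 6 each). Beta crystallins held 39.5% ± 2.52 in elmo2-/- and 42.7% ± 0.971 in elmo2+/+. Gamma N crystallins held 5.28% ± 0.162 and 5.78% ± 0.209. As a sum, the beta B genes had 80.9% of the elmo2+/+ mean in elmo2-/-, the beta A genes 83.2%, the gamma N genes 81.1%, the alpha genes 80.7% and the gamma M genes 95.0%. With replicates 1 to 4 of both genotypes, these were 95.9%, 96.4%, 93.9%, 97.3% and 109%.

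Other genes of the lens were set beside the crystallins, from a list of 38 symbols covering membrane and cytoskeletal proteins of fiber cells, enzymes and transcription factors. Of these symbols, 29 were found, as 36 genes, and 34 were tested. In edgeR, 0 had an adjusted p under 0.05, and 6 had an unadjusted p under 0.05, 5 lower and 1 higher in elmo2-/-, beside 4.68% of all genes in either direction. This count depended on single libraries. It was 11 without elmo2-/- replicate 1 (beside 7.25% of all genes), and 3, 1 and 3 without elmo2-/- replicates 4, 5 and 6 (beside 3.99%, 3.14% and 4.09%). It was 3 and 2 without elmo2+/+ replicates 4 and 5 (beside 5.2% and 4.43%). With elmo2-/- library numbers 13 to 16 only it was 1, beside 3.05% of all genes, and with library numbers 7 and 8 only it was 11, beside 6.53%. Their median log2 fold change was -0.039, and 23 of 34 lay below 0, beside 50.2% of all genes. Their summed level was 836 ± 71.6 TPM in elmo2-/- and 942 ± 77.3 TPM in elmo2+/+ (SD, n = 6 each). It was 97.3% of elmo2+/+ with replicates 1 to 4 of both genotypes, and the lowest 2 samples, 752 and 771 TPM, were elmo2-/- replicates 6 and 5. These samples also had the lowest crystallin sums in TPM. In the other elmo2-/- samples the orders differed, since replicate 1 had the highest lens sum (906 TPM) with a low crystallin sum, and replicate 4 a low lens sum (793 TPM) with the second highest crystallin sum of elmo2-/-.

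Of the genes of lens fiber membranes, MIP ENSDARG00000013963, an aquaporin 0 water channel, had 92.3 to 129 TPM in elmo2-/- and 120.5 to 148 TPM in elmo2+/+, with a log2 fold change of -0.26 (SE 0.10, unadjusted p = 0.0215 in edgeR). Its paralog MIP ENSDARG00000037285 had 66.4 to 77.6 TPM in elmo2-/- and 77.8 to 89.3 TPM in elmo2+/+, so that the TPM ranges just did not overlap, and the log2 fold change was -0.18 (SE 0.075, unadjusted p = 0.0285 in edgeR). In CPM this gene did overlap. lim2.3, a lens membrane protein of the fiber cells, had 58.1 to 82.6 TPM in elmo2-/- and 60.6 to 89.15 TPM in elmo2+/+, with a log2 fold change of -0.15 (SE 0.13).

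BFSP2, a component of the beaded filament that is specific to lens fibers, had 39.3 to 93.5 TPM in elmo2-/- and 78.8 to 108 TPM in elmo2+/+, with a log2 fold change of -0.35 (SE 0.16, unadjusted p = 0.0433 in edgeR). dnase1l1l, a nuclease of the zebrafish lens, had 5.06 to 9.82 TPM in elmo2-/- and 9.65 to 12.4 TPM in elmo2+/+, with a log2 fold change of -0.45 (SE 0.12, unadjusted p = 0.0023 in edgeR). LCTL ENSDARG00000016337, a lens protein in the mouse, had 2.295 to 6.20 and 4.38 to 7.34 TPM, with a log2 fold change of -0.44 (SE 0.19). caprin2, an RNA-binding protein, was low at 0.267 to 0.375 and 0.175 to 0.286 TPM, with a log2 fold change of 0.49 (SE 0.21). TFAP2A, a transcription factor of lens and other ectodermal tissues, had 60.4 to 69.1 and 49.1 to 70.1 TPM, with a log2 fold change of 0.10 (SE 0.079). The adjusted p was 0.9997 in edgeR for all of these lens genes.

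Markers of other tissues were summed for comparison, and their part in the crystallin levels was not tested. The summed level of 36 retina genes was 9174 ± 1104 TPM in elmo2-/- and 9449 ± 1439 TPM in elmo2+/+ (SD, n = 6 each), with 15 lower and 21 higher in elmo2-/- and 1 with an unadjusted p under 0.05. In elmo2-/- replicates 5 and 6, which had the lowest crystallin sums in TPM, the retina sum was 106% of the elmo2+/+ mean. The lens sum was 80.8% of its elmo2+/+ mean there, the liver sum 75.01%, the muscle sum 107% and the small heat shock sum 98.5%. The 2 samples differed in the liver sum, with 6358 TPM in replicate 5 and 2620 TPM in replicate 6. The sum of 7 liver genes was 6283 ± 2429 and 5984 ± 2693 TPM, with 3 lower and 4 higher in elmo2-/-. The sum of 7 muscle genes was 43487 ± 5612 and 41175 ± 3243 TPM, with all 7 higher in elmo2-/- and 1 with an unadjusted p under 0.05. The sum of 9 small heat shock genes was 114 ± 18.7 and 104 ± 15.3 TPM, with 3 lower and 6 higher and 1 with an unadjusted p under 0.05. In edgeR, 0 genes of these lists had an adjusted p under 0.05, beside 0% of all genes. Of all genes tested in edgeR, 50.2% had a log2 fold change below 0, and 4.68% had an unadjusted p under 0.05 in either direction. Over the 12 samples, the median Pearson correlation of single genes with the summed crystallin CPM was 0.40 for the lens list, 0.37 for the retina list, 0.33 for the muscle list, 0.080 for the small heat shock list and -0.24 for the liver list.

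The genes whose log2 CPM was most like the summed crystallin CPM were found among all tested genes outside the crystallins. Over the 12 samples, lim2.3 came first, with a Pearson correlation of 0.95. It was followed by si:ch211-255g12.6 (0.94), FBXL4 (0.94), si:dkey-57a22.15 (0.92), tubb6 (0.91), ENSDARG00000016213 (0.91), hmgn3 (0.90), thap1 (0.90), aspscr1 (0.89) and TEX10 (0.89). Of these, si:ch211-255g12.6 was expressed at the level of the abundant crystallins, with means of 1248 TPM in elmo2-/- and 1484 TPM in elmo2+/+. si:dkey-57a22.15 is one of the 3 genes without a crystallin symbol in the run of crystallin neighbours, and had means of 140 and 156 TPM.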

How the data were processed

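RNA of whole zebrafish larvae was sequenced on a BGISEQ-500 in 6 elmo2-/- and 6 elmo2+/+ samples, grouped by the sample labels. Larvae of the elmo1 and elmo3 lines were not used here. Whether a sample received PTU, which blocks pigment, is not stated. The authors deposited, for each sample, estimated counts per gene, with no scaling to a common total, and TPM per gene, which account for transcript length. The submitters' processing notes name Trim Galore 0.6.4, kallisto 0.4.6 and GRCz11. The annotation and the use of strand are not given in the sources used here. Near-identical copies can share reads in such estimates.

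Symbols came from a table in which 29201 of 32520 identifiers had one, many in human style. Members and gene lists were chosen with earlier results of these data known. Estimated counts were rounded to whole numbers, and genes were filtered with filterByExpr (minimum count of 10). Genotypes were compared by the quasi-likelihood test of edgeR 4.0.16 (R 4.3.3) after TMM scaling. The model held genotype alone, and p-values were adjusted by Benjamini-Hochberg over 22259 genes. To obtain an SE, the size of the log2 fold change was divided by the root of the F statistic. Levels are in TPM, and log2 CPM used a prior count of 2. No test was made on sums. Totals were 20116203 to 20939679 estimated counts per sample, and edgeR's biological coefficient of variation of 0.171 shows that precision in abundant genes is limited by the spread between pools. The script was tested on simulated data.

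Genes were named by a rule: elmo2, members past the adjusted threshold or without overlap, the 3 highest of each class, the 5 with the smallest p, the 3 with the largest and the 3 with the smallest SD, the 5 smallest p and 5 highest levels of the lens list, and the 10 genes most like the summed crystallins. Other members were named to account for their class.

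Alternatives were DESeq2 1.42.0, limma 3.58.1 on log2 TPM with a pseudocount of 1 or 0.1, scaling by RLE or by library size alone, looser and stricter filters, the replicate number as a block, leaving out each sample, and elmo2-/- library numbers 13 to 16 or 7 and 8 only. Replicates 1 to 4 of both genotypes, and replicates 5 and 6 of both, were added after the data were examined.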

Additional observations from a re-analysis of the deposited data

How the results depend on the processing

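The count of crystallin genes with an adjusted p under 0.05 was 0 of those tested under each alternative, as was that of the lens list with DESeq2 and the replicate block. Of all genes, 3 passed in DESeq2 and 2 with replicates 5 and 6 of both genotypes. The log2 fold change of elmo2 lay between -1.01 and -0.86 when each sample was left out. It was -0.93 in DESeq2, with an adjusted p of 0.00012, past the threshold only there.

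For summed CPM, elmo2-/- over elmo2+/+ on the log2 scale, leaving out each sample gave -0.25 to -0.11 for all crystallins, -0.12 to 0.042 for gamma M genes and -0.097 to 0.068 for the crygm2d copies. With elmo2-/- library numbers 7 and 8 only, beta B genes had -0.57 and crystallins outside the copies -0.50. Beta B genes had -0.051 with replicates 1 to 4 of both genotypes. Replicates 5 and 6 of both genotypes hold the lowest elmo2-/- and the highest elmo2+/+ sums in TPM, and were compared after these were seen. In CPM, the lowest elmo2-/- sum was that of replicate 1. Compared alone, replicates 5 and 6 had -0.57 for all crystallins, -0.78 for alpha, -0.65 for beta A, -0.77 for beta B, -0.39 for gamma M, -0.68 for gamma N, -0.35 for the copies and -0.71 outside the copies. The cause was not tested.

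Some log2 fold changes of single genes changed sign. cryba1l2 had -0.013 with library size only, -0.042 and -0.044 in limma with pseudocounts of 1 (under both filters) and 0.1, -0.00040 with the replicate block, -0.19 with library numbers 7 and 8 and -0.18 with replicates 5 and 6, and -0.064 to 0.061 when each sample was left out. CRYGN ENSDARG00000102129 had -0.0057 and -0.0061 in limma (pseudocounts of 1 and 0.1), -0.033 with library numbers 7 and 8, -0.21 with replicates 5 and 6, and -0.073 to 0.15 when each sample was left out. CRYAB ENSDARG00000042621 had 0.10 with library numbers 7 and 8, 0.041 with replicates 5 and 6, and -0.18 to 0.080 when each sample was left out. With replicates 1 to 4, CRYBA4 had 0.016, CRYBA2 ENSDARG00000030349 0.0012, CRYBB1 0.017, crygm2d8 0.029, crygm2d13 0.038, crygm2d19 0.039 and crygm2d20 0.015. crygm2d21 had -0.18 with replicates 5 and 6.

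The deviations of same-numbered samples had a mean correlation of only 0.16 (from -0.25 to 0.62), and 2 of the 6 elmo2-/- samples correlated best with their own number. The labels do not say what a number marks, and the samples were not treated as pairs. With the replicate block, 3 members had an unadjusted p under 0.05 in edgeR, beside 2 without it, and 1445 genes in all, beside 1041. The adjusted p of elmo2 with the block was 0.077. Members outside the rule for named genes changed sign too, among them crygmx (0.032) and crygmxl2 (0.0042) with replicates 1 to 4.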
